A study of Macaca fascicularis with 34 samples.

Results

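The genes described here take up vitamin A, make retinoic acid from it, bind it, read it and destroy it: STRA6, DHRS3, ALDH1A2, CRABP1, CRABP2, RARA, RARB, RARG and CYP26A1. They were picked by their human gene symbol from a table of 28551 genes, and all 9 were found, each as 1 row. They were measured in 34 single cells of cynomolgus monkeys (Macaca fascicularis, subspecies fascicularis), each cell being 1 library. The 9 gonad cells came from male gonads at embryonic day (E) 36 (6 cells), E47 (1 cell) and E55 (2 cells). The 25 embryo cells were taken at E13 (3 of them), E14 (1), E16 (11), E17 (2) and E20 (8). No treatment, altered genotype, animal or cell type is given in the labels, so each stage counts as 1 sample. Differences are therefore described with the spread between cells (standard deviation, SD) and none was tested.

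Retinol, the circulating form of vitamin A, enters a cell with the help of the membrane receptor STRA6 and is oxidised first to retinal and then to retinoic acid. DHRS3 turns retinal back into retinol, and ALDH1A2 carries out the last, irreversible step to retinoic acid. CRABP1 and CRABP2 are small cytoplasmic proteins that bind retinoic acid, and CRABP2 is known to hand it to the nuclear receptors RARA, RARB and RARG. These receptors sit on DNA as pairs with RXR proteins and switch target genes. CYP26A1 hydroxylates retinoic acid and so removes it. In mice, retinoic acid patterns the hindbrain and trunk mesoderm, and in the fetal ovary it is known for its part in the entry of germ cells into meiosis.

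In the deposited table the genes carry the macaque identifiers 102116294 (STRA6, chromosome 7), 102142015 (DHRS3, chromosome 1), 102120533 (ALDH1A2, chromosome 7), 102142773 (CRABP1, chromosome 7) and 102136379 (CRABP2, chromosome 1). The receptors are 102132722 (RARA, chromosome 16), 102128641 (RARB, chromosome 2) and 102142840 (RARG, chromosome 11), and the degrading enzyme is 102132859 (CYP26A1, chromosome 9). Levels are RPM, the reads of a gene over all reads of its cell on a common scale, obtained by sequencing transcript 3′ ends, and are compared between cells but not between genes. A gene was counted as present in a cell at 15 RPM or more. The cells held 472188 to 3556592 reads (median 2.002e+06), and depth was lowest at E13, where no cell exceeded 775711 reads.

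The cells were of different kinds, which matters for every stage mean. Clustering on the 1000 most variable genes gave a mesoderm-like group of 8 cells, E16 cell 8 and E20 cells 1 to 7, in which 8 of 10 mesoderm markers had a median of at least 15 RPM. The other 26 cells formed a group called germ-cell-like, with 12 of 14 germ cell markers at that median. E47 cell 1 fell in this group with all 14 germ cell markers at 15 RPM or more, but 14 of 18 gonadal somatic markers were at that level too, and they summed to 21675 RPM against 2381 RPM for the germ cell markers. CRABP2 itself was among the 10 genes that set the mesoderm-like group furthest apart, so its level there is not a separate observation. E17 cell 2 moved to the mesoderm-like group when cells were joined by average linkage. E20 cell 5, placed in the mesoderm-like group, held 9 of 14 germ cell markers at 15 RPM or more. Its germ cell markers summed to 3056 RPM and its mesoderm markers to 5072 RPM. E16 cell 8 held 5509 RPM of summed endoderm markers, against at most 297 RPM in any other cell. That exceeded its own 3004 RPM of mesoderm markers, and 10 of 14 germ cell markers reached 15 RPM in it. E20 cell 1 held 1810 RPM of summed blood and endothelium markers, CDH5 and KDR among them, against at most 383 RPM in any other cell. By sum, E20 cell 6 held more of the amnion markers (739 RPM) than of the mesoderm markers (604 RPM), with HAND1 on both lists. By count it held 8 of 10 mesoderm markers and 6 of 10 amnion markers at 15 RPM or more. The stages also differ in the code in their sample titles: MS08 marks E20 cells 1 to 7, MS09 the E16 cells and E20 cell 8, MS10 the E13 cells and MS13 the E14 cell, while MS11 marks E17 together with every gonad cell. The stage and the code cannot be told apart except within MS09 and MS11.

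A cell held on average 1.82 of the 9 genes at 15 RPM or more, and the number per cell ran from 0 to 6. By stage it averaged 2.33 ± 0.577 genes at E13 (SD, n = 3 cells), 2 in the E14 cell, 1.27 ± 1.74 at E16 (n = 11), 2 ± 1.41 at E17 (n = 2) and 3.25 ± 1.58 at E20 (n = 8). In the gonad it averaged 0.833 ± 1.17 at E36 (n = 6), 1 in the E47 cell and 1.5 ± 0.707 at E55 (n = 2). The cells with 6 genes were E16 cell 8, mixed in its markers as given above, and E20 cell 4, both placed in the mesoderm-like group. Without E16 cell 8 the E16 average was 0.8, and without E36 cell 5 the E36 average was 0.4.

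**Figure D1:**
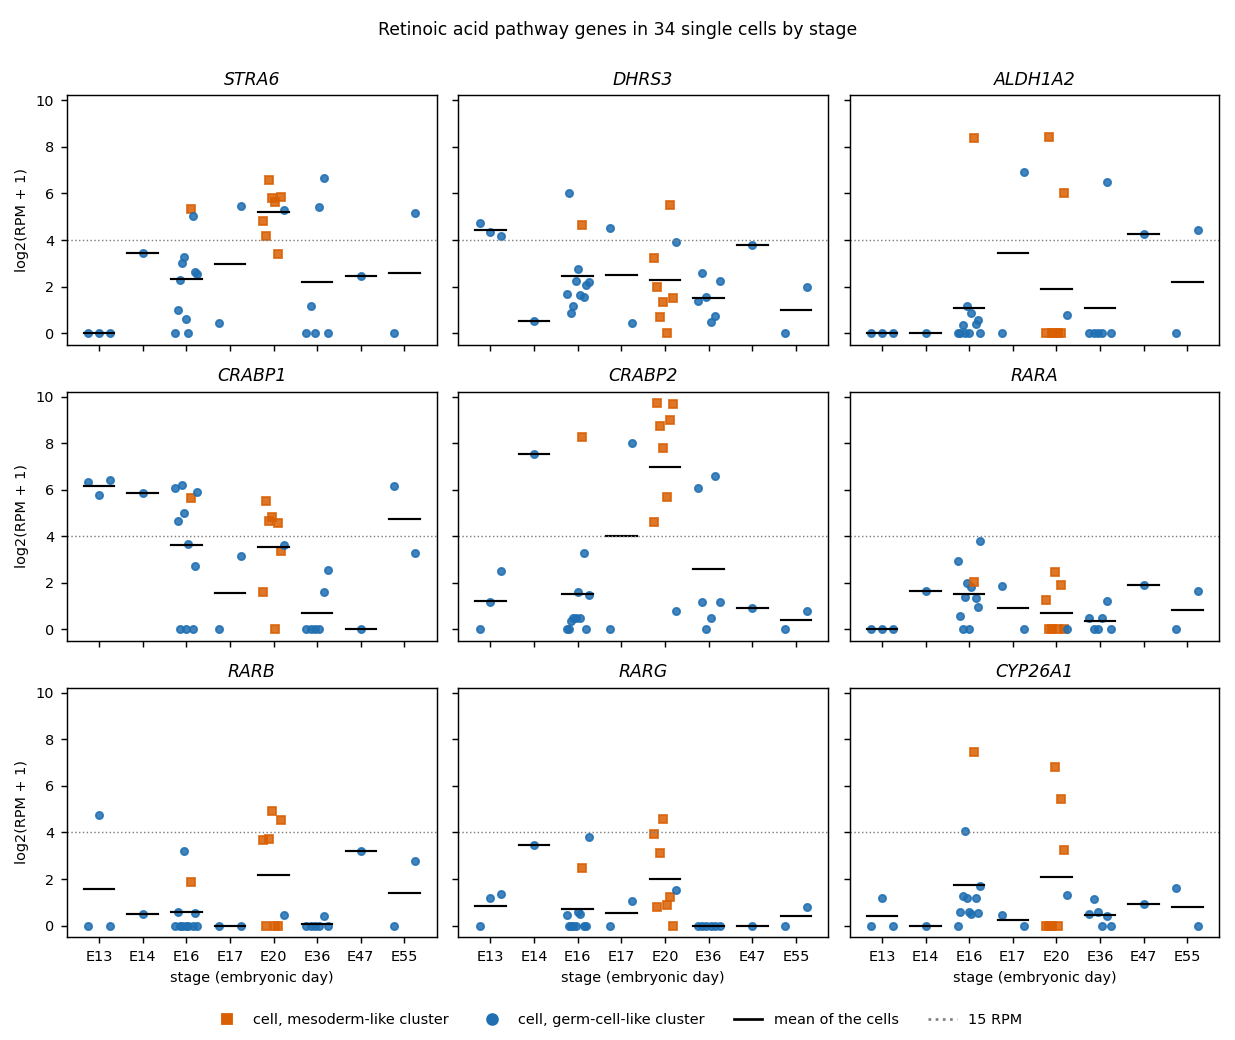
Level of each of the 9 genes in each of 34 cells by stage (x, embryonic day; y, log2(RPM + 1)). Orange squares are cells of the mesoderm-like cluster, blue circles cells of the germ-cell-like cluster, black bars stage means and the dotted line 15 RPM. CRABP1 is present in all 3 E13 cells, CRABP2 in E20 cells 1 to 7, and the 3 receptors stay low at every stage.

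STRA6, the retinol uptake receptor, was present in 13 of 34 cells, most of them at E20. All 3 E13 cells had 0 reads of STRA6, which at their summed depth allows up to 1.58 RPM, and the E14 cell had 9.96 RPM. At E16 it ran from 0 to 39.8 RPM with a median of 4.89 RPM, and E16 cells 8 and 9 reached 15 RPM. The E17 cells had 0.373 and 42.5 RPM. At E20 it ran from 9.53 to 94.6 RPM with a median of 43.6 RPM, and 7 of 8 cells reached 15 RPM. In the gonad, STRA6 stood at 42.0 RPM in E36 cell 4 and 102 RPM in E36 cell 5, and at 1.23 RPM or less in the other 4 E36 cells. It was 4.54 RPM in the E47 cell, and 0 and 34.8 RPM in the E55 cells. E20 was thus high in nearly every cell, whereas the gonad stages mixed cells with and cells without STRA6.

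DHRS3, which slows retinoic acid production, was the only member other than CRABP1 present in all 3 E13 cells. Its levels there were 25.4, 19.3 and 16.9 RPM, from 12, 15 and 11 reads. Their exact 95% Poisson intervals were 13.1 to 44.4, 10.8 to 31.9 and 8.45 to 30.3 RPM, so each reached below 15 RPM. The E14 cell had 0.433 RPM. The E16 cells ran from 0.844 to 63.8 RPM with a median of 3.25 RPM, and E16 cells 2 and 8 reached 15 RPM. The E17 cells had 22.0 and 0.357 RPM. At E20 the range was 0 to 44.9 RPM with a median of 2.41 RPM, and only E20 cell 6 reached 15 RPM. No gonad cell did: DHRS3 lay between 0.385 and 4.93 RPM at E36 with a median of 1.78 RPM, and was 12.7 RPM at E47 and 0 and 2.90 RPM at E55. The E16 mean of 10.2 RPM was 4.83 RPM without E16 cell 2, and the E20 mean of 9.27 RPM was 4.18 RPM without E20 cell 6.

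ALDH1A2, the enzyme that makes retinoic acid, was at 15 RPM or more in 7 of 34 cells and close to 0 in the rest. In embryo cells it stood at 336 RPM in E16 cell 8, 120 RPM in E17 cell 2, 339.8 RPM in E20 cell 2 and 63.4 RPM in E20 cell 7. In gonad cells it stood at 89.98 RPM in E36 cell 5, 18.1 RPM in E47 cell 1 and 20.3 RPM in E55 cell 2. In each of the other 27 cells it was 1.25 RPM or less, and it had 0 reads at E13 and E14. Every stage mean was therefore set by 1 or 2 cells: the E16 mean of 30.9 RPM was 0.316 RPM without cell 8, and the E20 mean of 50.5 RPM was 9.16 RPM without cell 2.

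The 3 gonad cells with ALDH1A2 were the same 3 that held WT1, a transcription factor of gonadal somatic cells. WT1 stood at 141 RPM in E36 cell 5, 21.8 RPM in E47 cell 1 and 57.2 RPM in E55 cell 2, and was at 0 in all other 31 cells. Summed over 18 gonadal somatic markers, E36 cell 5 held 1097 RPM, E47 cell 1 held 21675 RPM and E55 cell 2 held 519 RPM, and the other gonad cells held 105 to 488 RPM. Embryo cell E13 cell 1 held 525 RPM, of which GATA4 was 362 RPM, so E55 cell 2 did not stand apart by this sum. E36 cell 1, without WT1, held 83.5 RPM of NR2F2, 57.4 RPM of LHX9 and 74.2 RPM of SOX9. In E55 cell 2 these were 5.07, 0 and 42.7 RPM, while its AMH and DHH were 29.7 and 76.0 RPM, against 0 in E36 cell 1. E47 cell 1 had 15703 RPM of INSL3, a hormone of Leydig cells, the androgen-making cells of the testis. All 3 WT1 cells held germ cell markers as well, summing to 3108 RPM in E36 cell 5, 2381 RPM in E47 cell 1 and 3926 RPM in E55 cell 2. In the other gonad cells these summed to 4016 to 6256 RPM. The part of somatic transcripts in the ALDH1A2 level of the WT1 cells was not tested. The 6 gonad cells without ALDH1A2 reads also had no WT1 read.

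**Figure D2:**
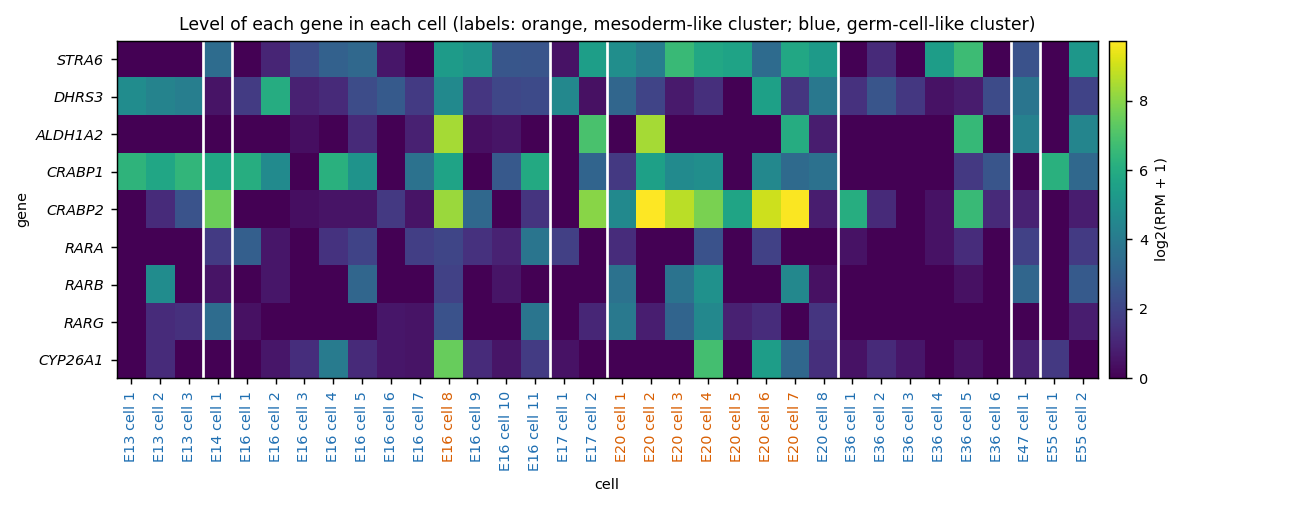
Level of each gene (rows) in each cell (columns, by stage, stages parted by white lines); colour gives log2(RPM + 1). ALDH1A2 is high in single scattered cells, CRABP2 in a block of E20 cells, and the E36 cells are dark for most genes.

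CRABP1 and CRABP2, which bind retinoic acid in the cytoplasm, had different patterns over the stages. CRABP1 was present in all 3 E13 cells, at 78.4, 52.9 and 84.6 RPM, and in the E14 cell at 56.7 RPM. At E16 it ran from 0 to 72.0 RPM with a median of 24.0 RPM, and 6 of 11 cells reached 15 RPM while E16 cells 3, 6 and 9 had 0 reads. It was 0 and 7.86 RPM at E17, and at E20 it ran from 0 to 45.1 RPM with a median of 16.95 RPM. In the gonad CRABP1 was close to absent at E36, with 0 reads in 4 of 6 cells, 2.04 RPM in cell 5 and 4.94 RPM in cell 6. The E47 cell had 0 reads, and the E55 cells had 70.7 and 8.69 RPM. Low CRABP1 thus held for every E36 cell and the E47 cell, while 1 of the 2 E55 cells lay within the E13 range.

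CRABP2 was high in mesoderm-like cells and in a few others. It was 0, 1.29 and 4.61 RPM at E13 and 184 RPM in the E14 cell. At E16 it stood at 306 RPM in cell 8 and at 8.86 RPM or less in the other 10 cells, and these other 10 averaged 1.42 RPM. The E17 cells had 0 and 254 RPM. At E20 it ran from 0.738 to 847 RPM with a median of 319 RPM. The single low cell was E20 cell 8, the only cell of that stage in the germ-cell-like group. E20 cell 5, which held many germ cell markers but lay in the mesoderm-like group, had 50.6 RPM. In the gonad CRABP2 reached 66.6 RPM in E36 cell 1 and 95.1 RPM in E36 cell 5, and was 1.24 RPM or less in the other 7 cells. All 8 mesoderm-like cells reached 15 RPM, against 4 of the 26 germ-cell-like cells: E14 cell 1, E17 cell 2, E36 cell 1 and E36 cell 5.

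The cells holding each binding protein overlapped only in part. CRABP1 was present in 15 cells and CRABP2 in 12, and 6 cells held both, which is 6 of 15 and 6 of 12. These were E14 cell 1, E16 cell 8 and E20 cells 2, 3, 4 and 6. Another 13 cells held neither, all of them germ-cell-like, among them 5 of 11 E16 cells and 4 of 6 E36 cells. Across the 34 cells CRABP2 and STRA6 had a Pearson r of 0.61 on log2(RPM + 1), and CRABP2 and CRABP1 had an r of 0.13. The cells share stages, title codes and cluster, so these correlations are descriptions and carry no p-value.

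**Figure D3:**
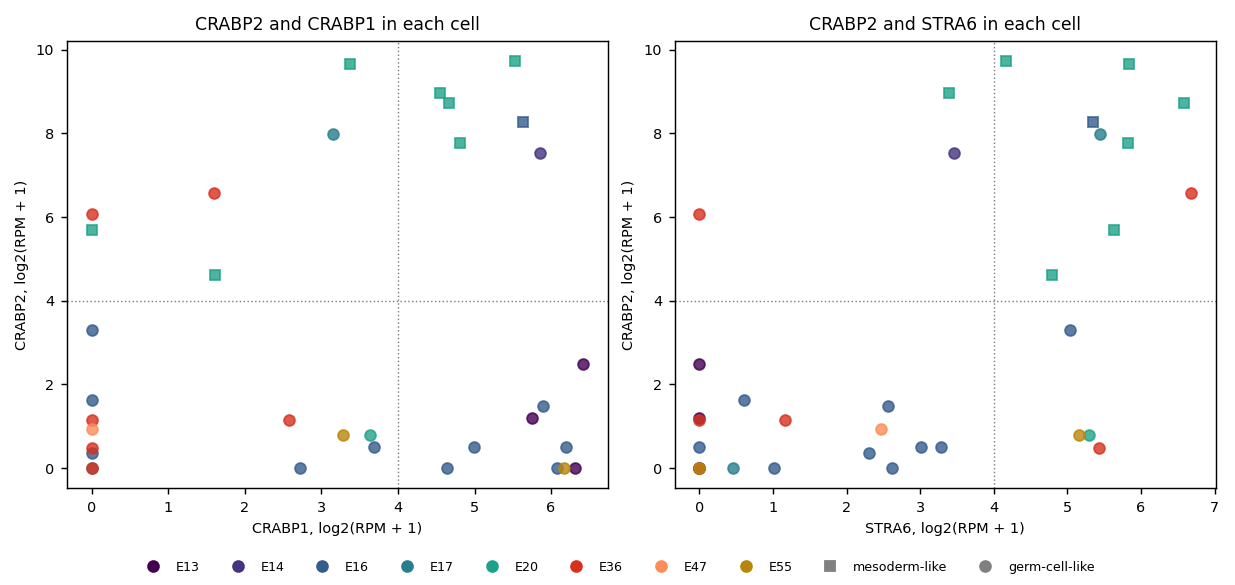
CRABP2 (y) against CRABP1 (left, x) and against STRA6 (right, x) in 34 cells, all as log2(RPM + 1). Colours give stages, squares the mesoderm-like and circles the germ-cell-like cluster, and dotted lines 15 RPM. At the upper right, 6 cells hold CRABP2 with CRABP1, and 9 cells hold CRABP2 with STRA6.

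The 3 retinoic acid receptors were scarce at every stage. All 34 cells together gave 115 reads of RARA, 167 of RARB and 143 of RARG. RARA, the most broadly expressed of the 3 in adult mammals, never reached 15 RPM, and its highest level was 12.9 RPM in E16 cell 11. RARB, itself a known target of retinoic acid, reached 15 RPM in E13 cell 2 (25.8 RPM), E20 cell 4 (29.3 RPM) and E20 cell 7 (22.4 RPM). RARG, a receptor of early mesoderm in mice, reached it in E20 cell 4 alone (22.6 RPM). Zeros at these read numbers mean that the transcript was not detectable at this depth, not that it was absent.

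Receptor reads differed between stages in number. Summed over the 3 genes, the level per cell had a median of 1.54 RPM at E13 (range 0 to 27.1), was 12.6 RPM in the E14 cell and had a median of 1.65 RPM at E16 (0 to 25.8). The E17 cells had 2.61 and 1.07 RPM, and the E20 median was 12.0 RPM (0.739 to 56.4). At E36 the median was 0.192 RPM and the highest cell had 1.70 RPM. The 6 E36 cells together gave 7 receptor reads, 6 of RARA, 1 of RARB and 0 of RARG, and the last allows up to 0.256 RPM at their summed depth. The E47 cell had 10.9 RPM and the E55 cells 0 and 8.69 RPM. The highest E36 cell thus lay below the highest cell of each of the other 7 stages.

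CYP26A1, which destroys retinoic acid, was present in 4 cells, all of them embryo cells. It stood at 15.7 RPM in E16 cell 4, 176 RPM in E16 cell 8, 112 RPM in E20 cell 4 and 42.2 RPM in E20 cell 6. Every other cell had 8.39 RPM or less, and the 9 gonad cells had 2.05 RPM or less. All 4 cells with CYP26A1 also held CRABP1, and 3 of them held CRABP2. The making and the destroying enzyme met in E16 cell 8 alone: it was the only one of the 7 ALDH1A2 cells that reached 15 RPM of CYP26A1. The E16 mean of 18.2 RPM was 2.38 RPM without cell 8, and the E20 mean of 20.5 RPM was 7.44 RPM without cell 4.

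ALDH1A2 and STRA6 were often found together. Of the 7 cells with ALDH1A2, 6 held STRA6 at 15 RPM or more, against 7 of the 27 cells without ALDH1A2. Of the 12 CRABP2 cells, 9 held STRA6, against 4 of the 22 cells without CRABP2. Among those 9, only E17 cell 2 and E36 cell 5 were germ-cell-like, while all 22 cells without CRABP2 were. STRA6 was present in 7 of 8 mesoderm-like and 6 of 26 germ-cell-like cells, so this contrast largely follows the clusters. DHRS3 and CRABP1 were also found together, in 6 of the 7 cells with DHRS3, against 9 of the 27 cells without DHRS3. These 6 cells included every E13 cell. Only 1 of the 7 DHRS3 cells, E16 cell 8, held STRA6.

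Ordered by mean log2(RPM + 1), neighbouring stages differed by less than the larger SD between cells for nearly every gene. CRABP1 ran down from E13 over E14, E55, E16, E20, E17 and E36 to E47, and CRABP2 from E14 over E20, E17, E36, E16, E13 and E47 to E55, with every neighbouring gap within that SD. STRA6 was highest at E20, and its gap of 1.74 to the E14 cell exceeded the SD of 1.03 at E20, though the E14 value lay inside the E20 range. DHRS3 was highest at E13, and its gap of 0.63 to the E47 cell exceeded the SD of 0.29 at E13. The E47 value came from 14 reads, and its exact 95% Poisson interval of 6.94 to 21.3 RPM overlapped that of every E13 cell. For RARB the gap of 0.45 between the E14 cell and E36 exceeded the SD of 0.17 at E36, at 1 read on each side. ALDH1A2, RARA and RARB had their highest mean in the E47 cell, RARG in the E14 cell and CYP26A1 at E20, each within the SD of its neighbour or, for RARA, within 0.23 of the next single cell.

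E20 and E16, the embryo stages represented by the largest numbers of cells, were set against each other to see how the genes differ over these days. A gene was counted as higher or lower when its mean log2(RPM + 1) differed at least 2-fold. By this rule 4 of the 9 genes were higher at E20 and 0 were lower, while among the 14998 genes measured at E20 or E16 13.9% were higher and 18.9% were lower. The median difference of the 9 genes was 0.83 on the log2 scale, against -0.12 over all measured genes. It turned to -0.34 with medians over cells in place of means, and to -0.12 within title code MS09. For all 9 genes the ranges of the E20 and E16 cells overlapped.

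CRABP2 differed most, averaging 359 ± 343 RPM at E20 (SD, n = 8 cells) and 29.1 ± 91.8 RPM at E16 (n = 11), a log2 difference of 5.49. STRA6 averaged 43.3 ± 27.0 RPM at E20 and 9.37 ± 13.5 RPM at E16, a log2 difference of 2.85. RARB averaged 9.49 ± 11.5 RPM at E20 and 1.09 ± 2.54 RPM at E16 (log2 difference 1.59). RARG averaged 6.18 ± 8.26 RPM at E20 and 1.70 ± 3.94 RPM at E16 (log2 difference 1.3), but 0.93 without E20 cell 4. The other 5 genes differed less than 2-fold, ALDH1A2 by 0.83, CYP26A1 by 0.36, CRABP1 by -0.10, DHRS3 by -0.17 and RARA by -0.83.

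These E20 differences changed with the E20 cells used. E20 cell 8 was both the only germ-cell-like and the only MS09 cell of E20. Within E20 the kind of cell and the title code therefore cannot be told apart, and both readings below rest on that 1 cell. The mesoderm-like cluster held 7 of 8 E20 cells and 1 of 11 E16 cells. Summed mesoderm markers ran from 604 to 9234 RPM at E20 (median 3503) and from 491 to 3004 RPM at E16 (median 2086). VIM alone made up much of some sums, 2873 of 2997 RPM in E16 cell 7 and 7464 of 8586 RPM in E20 cell 1. By count, E20 cells 1 to 7 held 6 to 8 of 10 mesoderm markers at 15 RPM or more, and E20 cell 8 held 2. E16 cell 8 held 9, and the other E16 cells held 2 to 4. With germ-cell-like cells alone, E20 cell 8 against 10 E16 cells, the log2 difference of CRABP2 was -0.03, of RARB 0.02, of RARG 0.97 and of STRA6 3.26. DHRS3, at -0.17 over all cells, was 1.69 there, with 38 reads in E20 cell 8, and RARA, at -0.83 over all cells, was -1.48, with 0 reads in that cell. Within title code MS09, E20 cell 8 against all 11 E16 cells, it was -0.70 for CRABP2, -0.12 for RARB, 0.80 for RARG, 1.47 for DHRS3 and 2.96 for STRA6. STRA6 in that cell was 38.4 RPM. STRA6 was thus at least 2-fold higher in the single germ-cell-like E20 cell as well, RARG was just short of 2-fold, and CRABP2 and RARB were near or below the E16 mean.

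**Figure D4:**
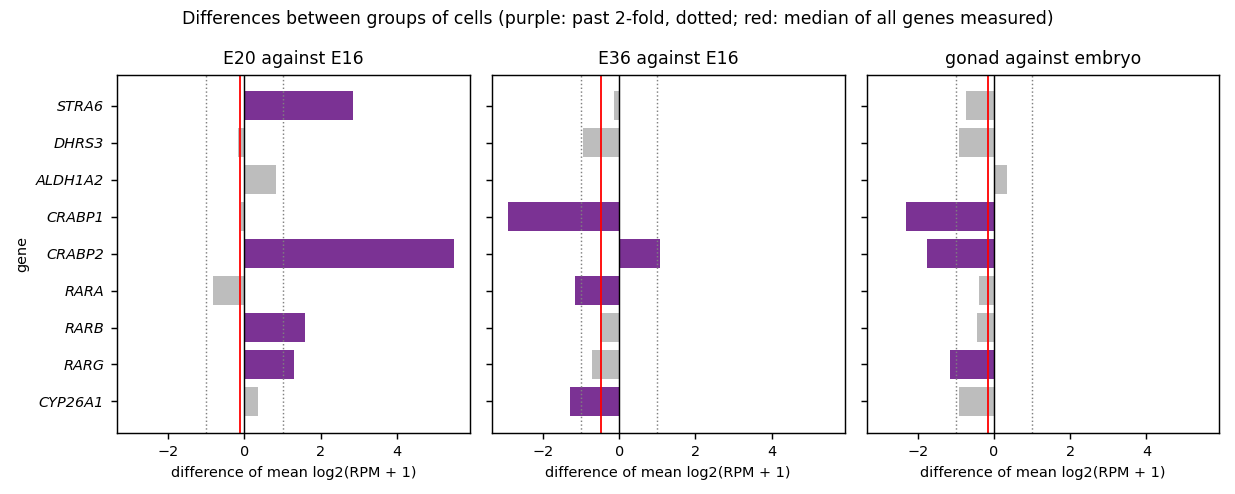
Difference of mean log2(RPM + 1) for each gene (rows) in E20 against E16, E36 against E16 and gonad against embryo. Purple bars pass 2-fold (dotted lines), grey bars do not, and the red line is the median of all genes measured. CRABP2 reaches 5.49 in E20 against E16, and CRABP1 -2.93 in E36 against E16.

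E36 gonad cells were compared with E16 embryo cells to see how the genes stand in cells of the gonad. CRABP1 averaged 1.16 ± 2.02 RPM at E36 (n = 6 cells) and 28.9 ± 28.1 RPM at E16 (n = 11), a log2 difference of -2.93. In summed reads that was 0.855 RPM at E36 (exact 95% Poisson interval 0.410 to 1.57) and 27.9 RPM at E16 (25.9 to 29.9), where the intervals cover counting error only. By the 2-fold rule 3 of the 9 genes were lower at E36 and 1 was higher, while of 14293 measured genes 30.2% were lower and 7.28% were higher. The share of lower genes was thus near that of all genes. The median was -0.71 for the 9 genes and -0.48 for all measured genes.

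The other calls in E36 against E16 were each lost when 1 cell was left out. CYP26A1 had a log2 difference of -1.3, which was -0.72 without E16 cell 8. RARA had -1.17, which was -0.94 without E16 cell 11. CRABP2 had 1.07, which was 0.37 without E36 cell 1 and 0.27 without E36 cell 5, and leaving out any of 7 E16 cells also took it below 2-fold. Without E36 cell 5, the cell with WT1, ALDH1A2 and STRA6 were also at least 2-fold lower, at -1.07 and -1.03. For ALDH1A2 this followed from the choice, as no other E36 cell had a read of it. CRABP1 remained more than 2-fold lower whichever single cell was left out, with log2 differences of -3.30 to -2.67.

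Over all stages, the gonad cells were lower than the embryo cells for CRABP1, CRABP2 and RARG. The mean of CRABP1 was 9.60 ± 23.1 RPM over the gonad cells (n = 9) and 29.6 ± 27.9 RPM over the embryo cells (n = 25), a log2 difference of -2.31. For CRABP2 the gonad mean was 18.5 ± 36.1 RPM and the embryo mean 146 ± 252 RPM (log2 difference -1.76). RARG gave 1 read in all gonad cells, a mean of 0.0805 RPM, and its embryo mean was 3.28 ± 5.79 RPM (log2 difference -1.15). Only 1 embryo cell, E20 cell 4, reached 15 RPM of RARG. RARG averaged 6.51 RPM in the mesoderm-like cells, all of them embryo cells, and 1.18 RPM in the germ-cell-like cells. Over the alternative settings its log2 difference ran from -1.99 to -0.30, so the RARG call did not hold in all of them. By the 2-fold rule 3 of 9 genes were lower and 0 higher, against 15.1% lower and 7.62% higher among 15245 measured genes. The 3 comparisons share their E16 or E36 cells and are not independent.

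CRABP1 was lower in gonad cells among germ-cell-like cells as well, with a log2 difference of -2.33, or -2.14 with E47 cell 1 left out too, while those of CRABP2 were 0.24 and 0.37. Within title code MS11, which holds the gonad cells and the E17 cells, CRABP1 differed by -0.06, since the E17 cells had 0 and 7.86 RPM. The low CRABP1 of the gonad cells and their title code thus cannot be told apart on these cells. Without the 3 gonad cells that held WT1, 2-fold lower levels in gonad cells held for 7 of the 9 genes, STRA6 with -1.97 among them, and none was higher. Among 14845 genes measured in the same cells 25.5% were lower and 7.4% higher. The 3 WT1 cells were the only gonad cells with ALDH1A2 reads, and E36 cell 5 and E55 cell 2 among them held STRA6. Leaving them out thus fixed the lower call of ALDH1A2 in advance, and the count of 7 is a description.

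Other genes of the pathway were read from a list of 70, of which 66 were in the table. In E20 against E16, 18 of 51 measured genes were at least 2-fold higher and 3 lower, where 13.9% of all measured genes were higher and 18.9% lower, and the median difference was 0.42, against -0.12 for all genes. The genes known as targets of retinoic acid made up 12 of these 18, out of 18 target genes measured, with 1 lower and a median of 2.0. MEIS2, a homeobox factor of limb and trunk mesoderm, averaged 96.6 ± 112 RPM at E20 and 6.83 ± 21.8 RPM at E16. At E20 it ran from 0.738 RPM in the germ-cell-like cell 8 to 329.8 RPM in cell 3, and 6 of 8 cells reached 15 RPM, against 1 of 11 cells at E16. That cell was E16 cell 8, at 72.5 RPM of MEIS2. The 3 pathway genes with the largest lower values at E20 were BHLHE40 (0.733 RPM at E20 and 17.9 RPM at E16), NCOA1, a receptor coactivator (20.5 RPM at E20 and 78.2 RPM at E16), and RBP4, the serum carrier of retinol (9.27 RPM at E20 and 22.9 RPM at E16). The RBP4 difference of -1.40 was -0.95 without E16 cell 1 or without E16 cell 3.

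In E36 against E16, 5 of 46 measured pathway genes were higher and 11 lower, and the median difference was -0.26. Of all measured genes 7.28% were higher and 30.2% lower, with a median of -0.48, so the share of lower pathway genes did not exceed that of all genes. RDH11, a retinol dehydrogenase by name, averaged 4.56 ± 5.67 RPM at E36 and 126 ± 151 RPM at E16, a log2 difference of -4.29. REC8, a meiotic cohesin gene known in mice to respond to retinoic acid, gave 0 reads in all 6 E36 cells and averaged 29.5 ± 29.6 RPM at E16. In summed reads REC8 stood at 31.2 RPM at E16. The 3 reads that a count of 0 allows over the summed E36 depth are 0.256 RPM, so the summed level was at least 121.7-fold lower at E36. The ranges overlapped, as E16 cells 4 and 6 also had 0 reads of REC8, and 7 of 11 E16 cells reached 15 RPM. NCOA1 was also lower, at 24.9 ± 33.3 RPM at E36 and 78.2 ± 64.7 RPM at E16. FABP5, a fatty acid binding protein that can also carry retinoic acid, averaged 738 ± 267 RPM at E36 and 252 ± 135 RPM at E16, and every E36 cell lay above every E16 cell. NR2F2, an orphan receptor and gonadal somatic marker, averaged 51.3 ± 90.2 RPM at E36 and 0.893 ± 2.39 RPM at E16, and FOXC1 averaged 28.7 ± 63.5 RPM at E36 and 2.34 ± 5.08 RPM at E16. FOXC1 rested on E36 cell 4, at 158 RPM, and E36 cell 5, at 14.6 RPM, with 0 reads in the other 4 E36 cells. Its log2 difference of 1.05 was -0.03 without E36 cell 4 and 0.64 without E36 cell 5, and leaving out any of 8 E16 cells also took it below 2-fold, to 0.97.

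In gonad against embryo, 6 of 54 measured pathway genes were higher and 10 lower, and the median difference was -0.16. Of all measured genes 7.62% were higher and 15.1% lower, with a median of -0.17, so the pathway genes lay near all genes. Among the pathway genes that averaged at least 15 RPM in the higher group, NR2F2 (log2 difference 2.21), FABP5 (1.31) and FOXC1 (1.16) were the highest, and REC8 (-3.29) and RDH11 (-3.02) the lowest. FOXC1 was under 2-fold without E36 cell 4 (0.55), E36 cell 5 (0.97), E47 cell 1 (0.78) or E55 cell 2 (0.77). Among the gonad stages RDH11 was low at E36: it stood at 98.9 RPM in the E47 cell and at 67.6 and 71.0 RPM in the E55 cells.

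Close relatives of the members, named after their values were seen, mostly gave few reads. ALDH1A1, another enzyme that makes retinoic acid, was found at 33.6 RPM in E47 cell 1 and 95.6 RPM in E55 cell 2, both WT1 cells, and at 2.24 RPM in E16 cell 8, with 0 reads in the other 31 cells. ALDH1A3 gave 2 reads in all 34 cells. CYP26B1, the main degrading enzyme of the mouse fetal testis, was found in 2 cells, with at most 14.3 RPM in E55 cell 1, and CYP26C1 gave 1 read. Of the RXR partners, RXRB was present in 18 of 34 cells with a median of 18.3 RPM, while RXRA reached at most 9.27 RPM and RXRG gave 4 reads. STRA8, the retinoic acid target of germ cells entering meiosis in mice, gave 0 reads in every cell, which at the summed depth allows up to 0.0468 RPM.

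**Figure D5:**
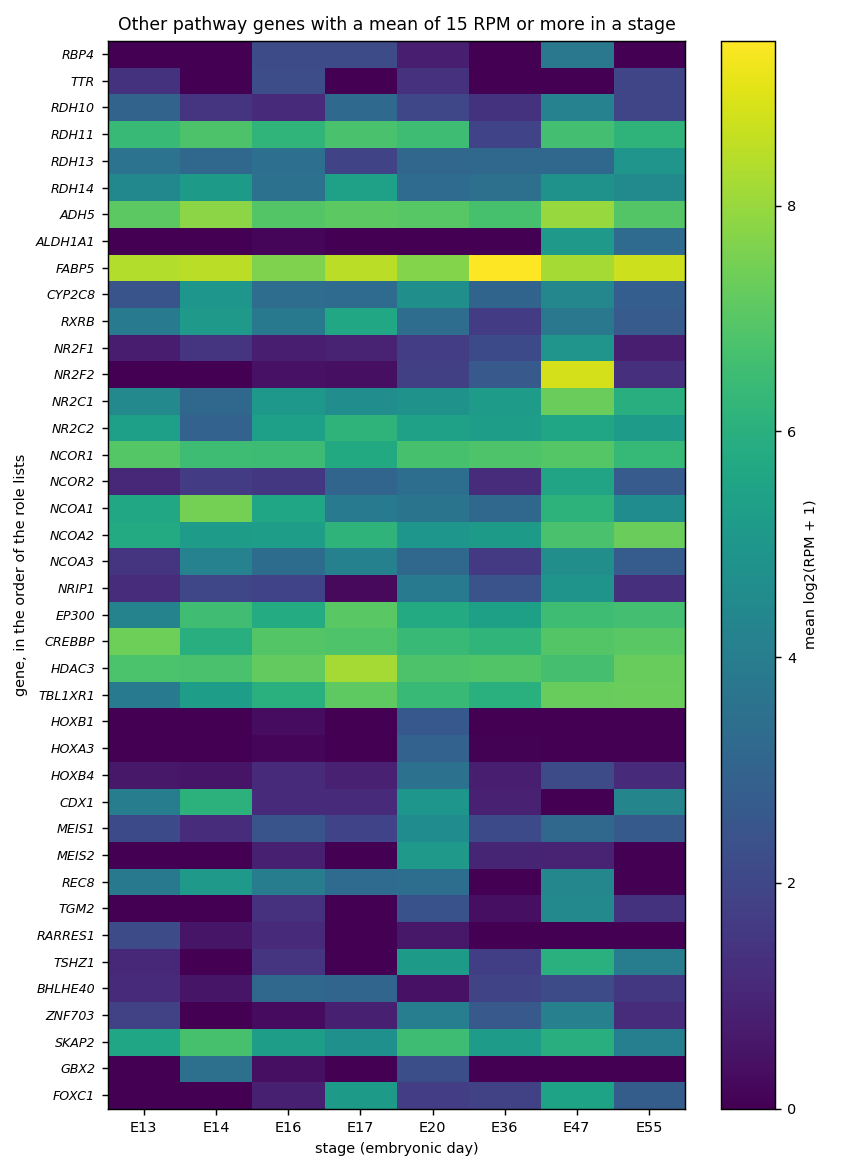
Mean log2(RPM + 1) at each stage (x) of 40 other pathway genes whose mean reached 15 RPM in a stage (y, in order of role). FABP5 is brightest at E36, MEIS2 at E20, and REC8 is dark at E36 and E55.

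For the 3 members present in at least 8 cells, the genes with the most similar levels across the 34 cells were looked up among 8466 genes. CRABP1 was most like ATXN7L1 (Pearson r 0.68) and RAB25 (0.68). CRABP2 was most like SALL1 (0.86), VEGFB (0.85) and LAMB1 (0.83). STRA6 was most like KIAA0907 (0.76), GLUL (0.75) and B2M (0.74). Inside the 8 mesoderm-like cells alone, r of CRABP2 was 0.54 with SALL1, 0.43 with VEGFB and -0.10 with LAMB1. That of STRA6 was -0.37 with KIAA0907, -0.32 with GLUL and 0.07 with B2M. Inside the 26 germ-cell-like cells, r of CRABP2 with the same genes was 0.70, 0.67 and 0.62, and that of STRA6 was 0.76, 0.67 and 0.64. None of these genes was on the pathway list.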

How the data were processed

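The authors deposited 1 expression table of 34 cells, with values on the log2(RPM + 1) scale, RPM being reads scaled to the cell's total, read from the values themselves: back-transformed columns sum to 992085 to 995711. Per the submitters' processing notes, cutadapt 1.3, TopHat 1.4.1 and Cufflinks 2.2.0 were used. The genome build is not given in the sources used here. Reads were recovered from the step between low values, of which 99.8% to 100% per cell were whole within 0.1 read. As amplified cDNA was read with no molecular identifiers, intervals and limits from read numbers cover counting error only.

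Stage means and SD are over cells. A difference is that of mean log2(RPM + 1), taken where either group averaged 1 RPM or more, and was called past 2-fold, a log2 difference of 1. Clusters used Ward linkage and marker lists. All 9 members are named, and a few genes that the following rules pick are not reported here. Further pathway genes are named where their mean reached 15 RPM, the 3 with the largest difference per direction and comparison. For each member at 15 RPM in at least 8 cells, the 3 genes with the highest Pearson r are named. The members and lists were chosen with earlier results of these data known. The difference calculation was tested on simulated data. Python 3.11.15, numpy 2.4.6, pandas 2.3.3, scipy 1.17.1 and matplotlib 3.10.9 were used. Alternatives changed the pseudocount, summary, scaling, depth, filter, cells and threshold. All 9 macaque identifiers matched the same symbol in the RefSeq table of assembly T2T-MFA8v1.1, which was used for names alone. No sequence is printed.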

Additional observations from a re-analysis of the deposited data

Results flagged for a closer look

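Among the cells of E20 and of E36, each gene was screened for a cell lying apart, by the gap to its nearest neighbour over the whole range of log2(RPM + 1). Of 17 such groups screened 2 stood out. The chance rate of about 1 in 20 belongs to replicates with spread-out values, so it does not apply to these 2, which are cells of 1 stage with 1 value above 0. In both the cell was E36 cell 5 and the gap over the range was 1, as it must be when the other E36 cells all had 0 reads. For ALDH1A2 this cell had 89.98 RPM. For RARB it had 0.34 RPM, which is 1 read. E36 cell 5 held 141 RPM of WT1 and 1097 RPM of summed gonadal somatic markers, and the part of these in either value was not tested.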

How the results depend on the processing

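No paired analysis was possible because the replicate numbers only name cells in accession order. In E20 against E16, 2 genes were at least 2-fold higher with a pseudocount of 10, with germ-cell-like cells alone and within MS09, and 1 was lower with medians over cells, germ-cell-like cells or MS09. Leaving out 1 cell gave 4 to 5 higher, 0 to 1 lower and medians of 0.25 to 1.47, while the median was -0.34 with medians over cells and -0.12 within MS09, against 0.83 in the comparison as reported. CRABP2 was -0.029 with germ-cell-like cells and -0.70 within MS09, and RARB was -0.12 within MS09. In E36 against E16 the median was -0.17 with a pseudocount of 10, -1.43 as a ratio of mean RPM and -1.35 with summed reads. The number higher was 0 with a pseudocount of 10, medians, thinned reads or without E36 cell 5. The number lower was 1 with a pseudocount of 10 or thinned reads, and 5 as a ratio of mean RPM, with summed reads or without E36 cell 5. Leaving out 1 cell gave 0 to 1 higher, 2 to 5 lower and medians of -1.03 to -0.59. CRABP2 was -0.082 as a ratio of mean RPM. In gonad against embryo the median was -0.30 with a pseudocount of 10, -0.52 with medians, -1.49 as a ratio of mean RPM, -1.62 with summed reads, -0.28 with germ-cell-like cells, -0.34 with those by average linkage and -0.33 with E47 cell 1 left out too, the last 2 chosen after seeing the data. The number lower was 7 as a ratio of mean RPM and 5 with summed reads. It was 7 without the 3 WT1 cells, the only gonad cells with ALDH1A2. With germ-cell-like cells by either linkage 1 was higher. Leaving out 1 cell gave 3 to 4 lower and medians of -1.0 to -0.68. CRABP2 was 0.24 with germ-cell-like cells, 0.64 with those by average linkage and 0.37 with E47 cell 1 left out too. At 30 RPM the E13 cells averaged 1 gene, and at 5 RPM the E55 cells averaged 2.5. The cause of these shifts was not tested. Size factors and thinning moved the median of all genes by at most 0.08. Depth limits zeros: in the shallowest cell, E13 cell 1, a count of 0 allows up to 6.35 RPM.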
